A study of Rattus norvegicus with 2 samples.

Results

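Genes of glucose uptake, glycolysis and pyruvate metabolism were examined in cultured epidermal keratinocytes of newborn rats. A list of 38 gene symbols covered the glucose transporters, the enzymes from hexokinase to lactate dehydrogenase, the regulators of phosphofructokinase, the pyruvate dehydrogenase complex with its kinases and a phosphatase, and 3 enzymes of glycogen metabolism. Of these, 37 had a named probe among the 15037 named genes of the array, and Pdhx, which encodes the E3-binding component of the pyruvate dehydrogenase complex, had none. The control group was 1 culture labelled NC+VC, whose genotype is given as control. The siTet2/3 group was 1 culture that received siRNAs against Tet2 and Tet3 at 1 µM each. Both cultures shared the treatment with vitamin C, which lasted 12 h, so no culture without vitamin C enters the comparison. Its start is given as 24 h after transfection for both, yet the labels also describe the control cells as non-treated. They do not say whether the control cells received another siRNA or the transfection reagent. The siRNAs and the transfection itself therefore cannot be told apart here. The number of animals behind the cells is not stated. With 1 array in each group there is no replicate spread, no test was possible, and every difference below is between these 2 arrays.

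Glycolysis splits glucose into pyruvate in the cytosol and yields ATP and NADH. Pyruvate is then either reduced to lactate, which leaves the cell through monocarboxylate transporters, or oxidised in mitochondria by the pyruvate dehydrogenase complex. Phosphofructokinase is a main control point, and its strongest activator, fructose 2,6-bisphosphate, is made and removed by the bifunctional Pfkfb enzymes. The transcription factor HIF-1 raises many genes of this pathway when oxygen is low, and the hydroxylases that mark HIF for removal are, like the TET enzymes, helped by vitamin C. TET enzymes oxidise methylated cytosine, which in mammals lies mostly in CG dinucleotides.

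Values are log2 signals on the deposited scale. A gene was counted as above background where the higher of its 2 values passed a floor of 5.03 log2 units, the 95th percentile of 1201 chemoreceptor genes, and 8127 named genes did so. A second, stricter level was the 95th percentile of 1153 negative-control probes, 8.31 log2 units. Of Tet1, Tet2 and Tet3, 0 had a named probe, so the knockdown was not analysed here. All 7 keratinocyte markers with a named probe were above the floor on both arrays, among them Krt14, Tp63 and Dsg3. Of these 7, Krt15, a keratin of basal and follicle cells, was past 1.5-fold, at 8.78 and 11.26 log2 units (5.59-fold higher in siTet2/3 cells), and its part in the differences below was not tested. Of 31 measured markers of 5 other cell types, 4 were above it, namely Vim, Mitf, Tek and Cd68, and all 5 muscle markers were below it on both arrays. In bulk RNA, fewer cells of a type and less RNA per cell cannot be told apart.

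The pathway as a whole lay close to the other genes on the array. Of the 37 measured members, 32 were above the floor, and all 32 were above it on both arrays. On the siTet2/3 array, 4 members were at least 1.5-fold lower, namely Pfkfb3, Pdhb, Pfkfb2 and Pfkfb4. Another 2, Pfkm and Ldhb, were at least 1.5-fold higher, and 26 were past neither limit. The lower members made up 12.5% of the 32, where 13.2% of all named genes above the floor were 1.5-fold lower. The higher members made up 6.25%, against 8.65% of all genes. Both shares were near that background. The median difference of the members was -0.16 log2 units, with quartiles at -0.39 and 0.04, and that of all genes was -0.05, with quartiles at -0.36 and 0.25. A difference below 0 was found for 21 of the 32 members (65.6%) and for 55% of all genes. The 6 calls stood after centring on the median difference and after removal of a trend on signal level.

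**Figure D1:**
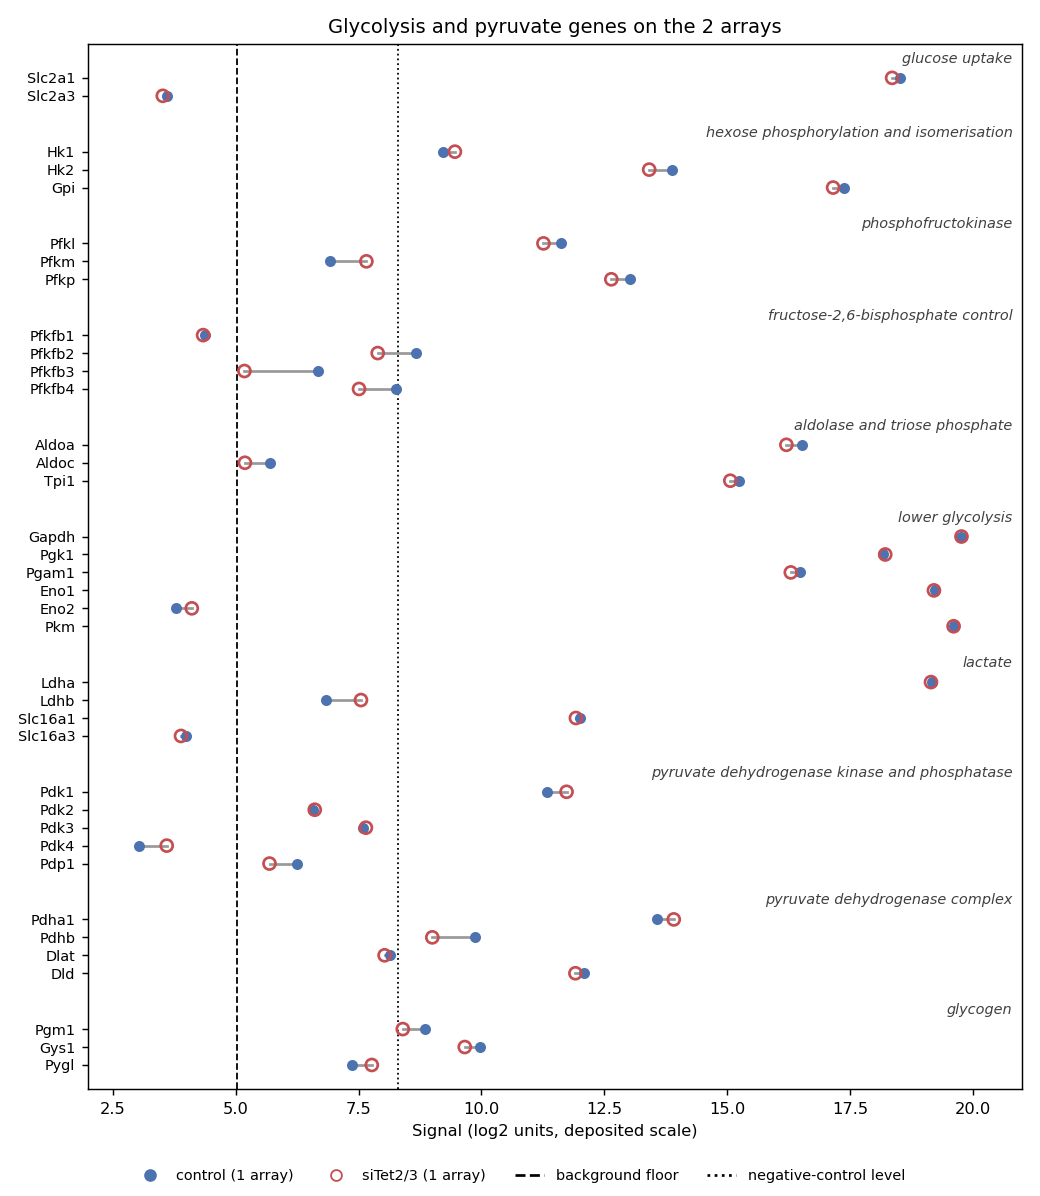
Log2 signal of the 37 measured members on the control array (filled circles) and the siTet2/3 array (open circles), grouped by role, with the background floor of 5.03 (dashed) and the negative-control level of 8.31 (dotted). The widest gap is that of Pfkfb3, while the 2 circles of each of Gapdh, Pkm, Eno1 and Ldha, near the right edge, coincide.

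The regulators of fructose 2,6-bisphosphate were the only role in which every member above the floor, 3 of 3, was at least 1.5-fold lower. Of all named genes above the floor 13.2% were lower, and 15.5% of those between the floor and the negative-control level. Roles held from 1 to 5 genes above the floor, so a count within a role is small, and this role is named for its values. Pfkfb3, the isoform with the highest ratio of kinase to phosphatase activity, read 6.68 log2 units in control cells and 5.18 in siTet2/3 cells, a 2.82-fold lower signal. It was the 30th lowest difference among 8127 genes, and its siTet2/3 value was just above the floor of 5.03. Under a floor from chemoreceptors by current symbol alone, 5.23, that value is below background, and Pfkfb3 would be at least 2.73-fold lower. Pfkfb2, known as the heart isoform, read 8.67 and 7.89, or 1.72-fold lower. Pfkfb4, known from testis and from hypoxic cells, read 8.26 and 7.51, or 1.68-fold lower. The liver isoform Pfkfb1 was below the floor on both arrays, at 4.38 and 4.34. Of the 3 lower isoforms, Pfkfb2 passed the negative-control level of 8.31, on the control array, while Pfkfb3 and Pfkfb4 lay below it on both arrays.

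Promoters are shown for Pfkfb3, the member with the largest decrease, and for its family members above the floor. Each is the stretch of 250 bases before the transcription start in RefSeq, build GRCr8, written 5′ to 3′ on the gene's strand. Capitals mark ACGTG or GCGTG, the core letters of the hypoxia response element, on either strand, and CACGTG, the E-box, which holds ACGTG on both strands.
Pfkfb3, chr17:71944683-71944932 (+ strand): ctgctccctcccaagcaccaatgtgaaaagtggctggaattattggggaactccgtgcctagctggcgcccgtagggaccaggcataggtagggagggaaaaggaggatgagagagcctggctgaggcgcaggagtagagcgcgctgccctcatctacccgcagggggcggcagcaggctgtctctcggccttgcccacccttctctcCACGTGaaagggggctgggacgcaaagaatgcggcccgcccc
Pfkfb2, chr13:44726972-44727221 (- strand): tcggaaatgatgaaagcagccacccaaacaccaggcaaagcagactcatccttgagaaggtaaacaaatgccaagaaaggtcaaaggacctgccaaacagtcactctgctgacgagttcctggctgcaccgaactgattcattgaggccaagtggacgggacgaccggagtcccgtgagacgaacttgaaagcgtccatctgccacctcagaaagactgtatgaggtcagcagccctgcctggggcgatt
Pfkfb4, chr8:118525916-118526165 (+ strand): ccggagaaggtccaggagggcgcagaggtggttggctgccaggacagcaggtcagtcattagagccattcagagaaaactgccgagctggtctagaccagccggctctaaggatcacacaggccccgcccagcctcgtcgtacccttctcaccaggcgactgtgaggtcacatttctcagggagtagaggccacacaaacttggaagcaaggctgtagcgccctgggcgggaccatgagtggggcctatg
The Pfkfb3 window holds 1 CACGTG, which begins 42 bases before the start. The windows of Pfkfb2 and Pfkfb4 hold none of the 3 motifs. With the 50 bases after the start included, the windows have 20 CG dinucleotides for Pfkfb3, 12 for Pfkfb2 and 12 for Pfkfb4, where the median window of all named genes above the floor has 22. These are the letters of 1 annotated start per gene, and neither binding nor DNA methylation was measured.

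Of the phosphofructokinase genes themselves, 1 of 3 passed 1.5-fold and was higher, and 0 were lower. Of all named genes above the floor, 8.65% were higher and 13.2% lower. Between the floor and the negative-control level 11.4% were higher, and a count among 3 genes is small. Phosphofructokinase makes fructose 1,6-bisphosphate, the committed step of glycolysis, and its subunits are encoded by 3 genes. Pfkm, the muscle subunit, was the most increased member, at 6.91 log2 units in control cells and 7.66 in siTet2/3 cells, or 1.68-fold higher. Pfkl, the liver subunit, read 11.61 and 11.26, a difference of -0.36 log2 units. Pfkp, the platelet subunit, read 13.01 and 12.64, a difference of -0.37. Neither passed 1.5-fold, and both lay near the lower quartile of all genes, -0.36. The differences of Pfkl and Pfkp lay 0.02 log2 units apart, while that of Pfkm exceeded them by 1.10 and 1.12. Pfkm lay below the negative-control level on both arrays. The 5 muscle markers read between 2.38 and 3.06 in control cells and between 3.03 and 3.35 in siTet2/3 cells, all below the floor.

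The promoters of the 3 subunit genes are shown to set Pfkm, the one past 1.5-fold, beside its family members, with the same capitals and build as above.
Pfkm, chr7:131113849-131114098 (+ strand): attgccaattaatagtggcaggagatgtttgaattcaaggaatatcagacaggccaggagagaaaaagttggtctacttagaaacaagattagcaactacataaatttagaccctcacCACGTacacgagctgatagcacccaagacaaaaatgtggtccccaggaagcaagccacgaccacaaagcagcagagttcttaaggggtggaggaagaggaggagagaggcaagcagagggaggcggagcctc
Pfkl, chr20:10663715-10663964 (+ strand): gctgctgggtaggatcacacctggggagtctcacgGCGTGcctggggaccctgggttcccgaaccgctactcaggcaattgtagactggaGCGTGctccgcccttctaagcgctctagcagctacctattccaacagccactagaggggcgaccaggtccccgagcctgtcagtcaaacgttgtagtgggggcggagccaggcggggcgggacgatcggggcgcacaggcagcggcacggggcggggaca
Pfkp, chr17:68639563-68639812 (+ strand): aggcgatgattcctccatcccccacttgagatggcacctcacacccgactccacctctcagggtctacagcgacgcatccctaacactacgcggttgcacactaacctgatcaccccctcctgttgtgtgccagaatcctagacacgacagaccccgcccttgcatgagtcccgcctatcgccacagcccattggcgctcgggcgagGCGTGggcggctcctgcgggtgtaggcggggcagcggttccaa
The Pfkm window holds ACGTG on the opposite strand, beginning 132 bases before the start. The Pfkl window holds GCGTG at 215 and at 160 bases, and the Pfkp window at 43 bases. The windows with the 50 bases after the start have 7 CG dinucleotides for Pfkm, 27 for Pfkl and 23 for Pfkp.

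Among genes of glucose uptake and the first steps, 0 passed 1.5-fold. Slc2a1, which encodes the glucose transporter GLUT1, read 18.51 log2 units in control cells and 18.35 in siTet2/3 cells. Slc2a3, which encodes GLUT3, was below the floor, at 3.60 and 3.52. The hexokinase genes, whose products trap glucose as glucose 6-phosphate, had differences of opposite sign, neither past 1.5-fold. Hk2, the isoform that responds to insulin and hypoxia, read 13.87 and 13.41, or 1.38-fold lower. Hk1, the broadly expressed isoform, read 9.22 and 9.46, or 1.18-fold higher, so their differences lay 0.70 log2 units apart. Gpi, which encodes glucose-6-phosphate isomerase, read 17.37 and 17.15, or 1.16-fold lower.

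None of the 3 aldolase and triose phosphate genes passed 1.5-fold, and their differences ran from -0.52 to -0.17 log2 units. Aldoa, the main aldolase of most tissues, read 16.51 log2 units in control cells and 16.20 in siTet2/3 cells, or 1.24-fold lower. Aldoc, the brain aldolase, read 5.71 and 5.19, or 1.44-fold lower, with both values close to the floor. Tpi1, the triose phosphate isomerase gene, read 15.23 and 15.06.

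Of the enzymes that follow, which carry the oxidation of glyceraldehyde 3-phosphate and the ATP-forming steps, 5 of 6 were above the floor. Pgk1, which encodes phosphoglycerate kinase, read 18.17 and 18.21. Pgam1, which encodes phosphoglycerate mutase, read 16.47 and 16.29. Eno1, the ubiquitous enolase, read 19.23 and 19.20, while the neuronal enolase Eno2 was below the floor, at 3.78 and 4.11. These differences ran from -0.18 to 0.04 log2 units for the members above the floor. Gapdh, which encodes glyceraldehyde 3-phosphate dehydrogenase, read 19.76 on both arrays, and Pkm, the pyruvate kinase gene, 19.60 on both. Their deposited values were identical to the last decimal, as were those of 35 of the 8127 genes above the floor. The highest deposited value was 19.93, and 0 members came within 0.05 of it. Gapdh and Pkm were still among the brightest gene probes, 35th and 41st on the control array. Whether the scale holds back differences at such levels was not tested. The probe of Pkm stands for the gene, so its splice forms were not told apart.

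Lactate genes included the other increased member. Ldhb, the heart subunit of lactate dehydrogenase, read 6.83 log2 units in control cells and 7.55 in siTet2/3 cells, or 1.64-fold higher, below the negative-control level on both. Ldha, the muscle subunit, read 19.17 and 19.14, so the difference of Ldhb exceeded that of Ldha by 0.75 log2 units. Slc16a1, which encodes the monocarboxylate transporter MCT1, read 12.01 and 11.92. Slc16a3, which encodes the lactate exporter MCT4, was below the floor, at 4.0 and 3.89.

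Of all named genes above the floor, 21.9% were past 1.5-fold in either direction. In the pyruvate dehydrogenase complex, which turns pyruvate into acetyl-CoA, 1 of 4 genes above the floor, a subunit of the first enzyme (E1), was past 1.5-fold. Pdhb, the beta subunit, read 9.86 log2 units in control cells and 9.00 in siTet2/3 cells, or 1.81-fold lower, the second largest decrease among the members and above the negative-control level on both arrays. Pdha1, the X-linked alpha subunit, read 13.56 and 13.91, or 1.27-fold higher, so the 2 subunit genes lay 1.20 log2 units apart. Dlat, the acetyltransferase (E2), read 8.15 and 8.03. Dld, the dihydrolipoamide dehydrogenase (E3) shared with other complexes, read 12.08 and 11.91.

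None of the kinases that switch the complex off passed 1.5-fold above the floor. Pdk1, a known HIF target, read 11.33 log2 units in control cells and 11.73 in siTet2/3 cells, or 1.32-fold higher. Pdk2 read 6.57 and 6.61, and Pdk3 read 7.59 and 7.65. Pdk4, a kinase induced by fasting, was below the floor, at 3.03 and 3.60. Pdp1, which encodes a phosphatase that switches the complex on again, read 6.24 and 5.69, or 1.46-fold lower. It did not pass 1.5-fold either.

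The glycogen members were also within 1.5-fold. Pgm1, which interconverts glucose 1-phosphate and glucose 6-phosphate, read 8.86 log2 units in control cells and 8.40 in siTet2/3 cells. Gys1, the glycogen synthase gene, read 9.97 and 9.66. Pygl, the liver glycogen phosphorylase gene, read 7.36 and 7.77, or 1.33-fold higher.

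**Figure D2:**
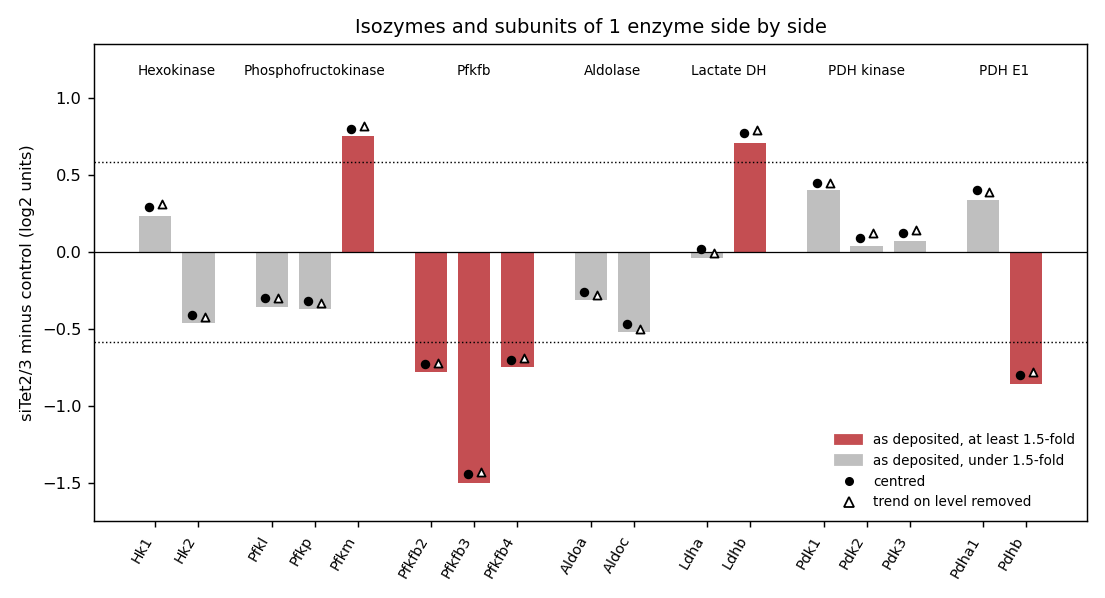
Difference between the siTet2/3 and control arrays (log2 units) for isozymes or subunits of the same enzyme, as deposited (bars, red at 1.5-fold or more), after centring (filled circles) and after removal of a trend on signal level (triangles); dotted lines mark 1.5-fold. Pfkm and Ldhb lie above the upper line, Pdhb below the lower one, and the 3 Pfkfb isoforms also lie below the lower line.

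Gaps between isozymes do not depend on how the 2 arrays were centred, because centring shifts every gene alike. Removal of the trend on level also left them nearly the same. The gap between Pfkm and Pfkl was 1.13 log2 units after it, that between Pdha1 and Pdhb 1.17, that between Ldhb and Ldha 0.80 and that between Hk1 and Hk2 0.73. The small differences of Ldha and Eno1 changed sign with centring, to 0.02 and 0.03 log2 units.

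How far a member differed went together with its signal level, as it did for genes in general. Among the 179 genes whose higher value was above 16 log2 units, 5.03% were 1.5-fold lower and 1.12% higher. The 9 members at that level, Slc2a1, Gpi, Aldoa, Gapdh, Pgk1, Pgam1, Eno1, Pkm and Ldha, had differences from -0.31 to 0.04. Between 12 and 16 log2 units, where 8.53% of 961 genes were lower and 4.68% higher, 0 of 6 members passed 1.5-fold, and their differences ran from -0.46 to 0.34. Between the negative-control level and 12, 12.1% of 2984 genes were lower and 6.74% higher, and 2 of 7 members, Pdhb and Pfkfb2, were lower. Between the floor and the negative-control level, 15.5% of 4003 genes were lower and 11.4% higher. That range held 10 members, of which Pfkfb3 and Pfkfb4 were lower and Pfkm and Ldhb higher. Thus 4 of the 6 members past 1.5-fold had both signals below the negative-control level. Whether dim signal contributes to their differences was not tested.

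**Figure D3:**
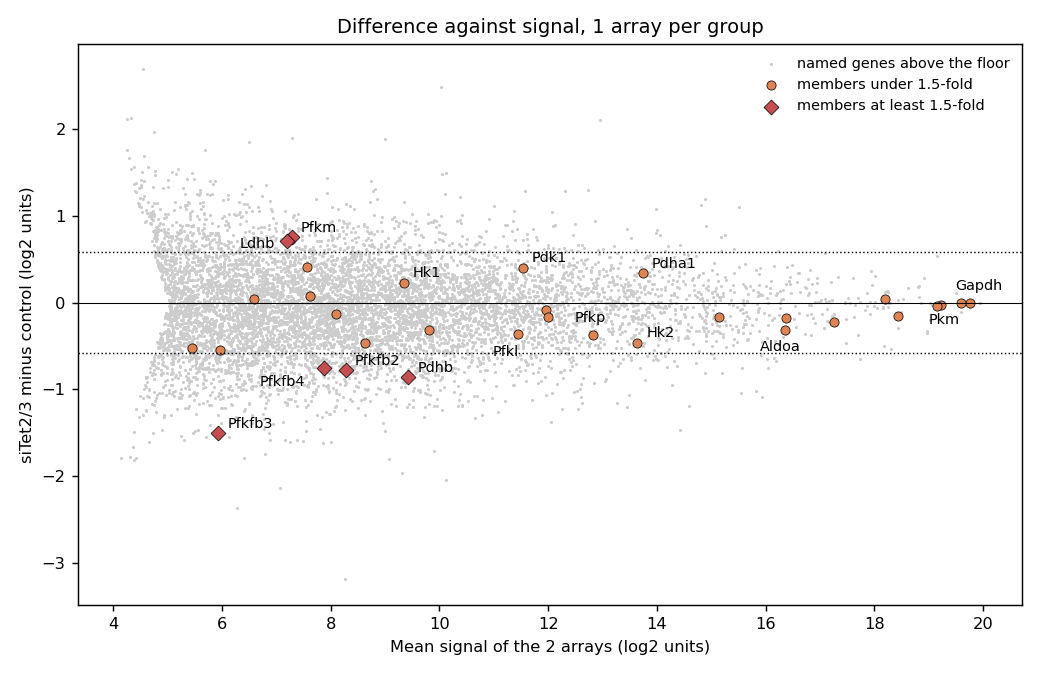
Difference between the siTet2/3 and control arrays against the mean signal of both (log2 units) for 8127 named genes above the floor (grey) and the 32 members among them, with dotted lines at 1.5-fold. Members past 1.5-fold (diamonds) lie at mean signals under 10, and the spread of all genes narrows towards the right. The empty wedge at the left edge comes from counting a gene by its higher value.

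Neighbouring pathways were read from 6 lists of 136 genes, of which 77 were above the floor. On the siTet2/3 array 12 of the 77 were at least 1.5-fold lower (15.6%) and 2 higher (2.60%), against 13.2% and 8.65% of all genes. After centring the counts were 9 lower and 3 higher, and after removal of the trend 8 and 5, so the balance between lower and higher genes moved with the scaling. Over all genes it moved too, from 1073 lower and 703 higher to 904 and 850 after centring and 914 and 829 after removal of the trend. Among other isozymes and sugar enzymes, 4 of 18 were lower. The call of Pmm2, among these 4, was lost with centring and with the trend removed, at -0.54 log2 units in each. Pdp2, which encodes the other pyruvate dehydrogenase phosphatase, read 9.44 log2 units in control cells and 8.62 in siTet2/3 cells, or 1.77-fold lower. Galm, the galactose mutarotase gene, was 1.76-fold lower and Pmm1, a phosphomannomutase gene, 1.70-fold lower. Pdpr, which encodes a regulatory subunit of pyruvate dehydrogenase phosphatase, was 1.55-fold higher. The catalytic phosphatase genes Pdp1 and Pdp2 had differences of -0.54 and -0.82 log2 units.

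The mitochondrial pyruvate carrier and redox shuttle genes had 1 of 9 lower, Got1, a cytosolic aminotransferase of the malate-aspartate shuttle (1.56-fold). For this list and the next, the shares over all genes are 13.2% lower and 8.65% higher. The carrier subunit gene Mpc1 read 12.18 and 12.15 log2 units, and Mpc2 8.38 and 8.86. In the tricarboxylic acid cycle list 2 of 19 were lower. Pc encodes pyruvate carboxylase, which feeds pyruvate into the cycle as oxaloacetate. It read 5.65 in control cells and 4.58, below the floor, in siTet2/3 cells. Against the floor of 5.03 Pc was at least 1.54-fold lower. Against the floor of 5.23 from current symbols alone, that bound falls short of 1.5-fold. Sucla2, a succinyl-CoA ligase subunit, was 1.56-fold lower. After removal of the trend this list had 1 lower gene, Pc, and 2 higher, Idh2 and Suclg2. In that setting Got1 and Sucla2 fell short of 1.5-fold, and Got1 did so after centring too.

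In the pentose phosphate pathway, which branches off at glucose 6-phosphate, 1 of 8 was higher, the transaldolase gene Taldo1 (1.59-fold). Another 1 was lower, the phosphoribosyl pyrophosphate synthetase gene Prps2 (1.60-fold). Each call is 12.5% of this list, and 13.2% of all genes were lower and 8.65% higher. Of 9 further glycogen genes, 1 was lower (11.1%) and 0 higher, near the same shares. The lower gene was Phkg2, a catalytic subunit of phosphorylase kinase (2.01-fold). After removal of the trend Phka1, of this list, passed the limit as higher, at 0.60 log2 units. Among regulators of glycolysis genes, 3 of 14 were lower (21.4%) and 0 higher, against 13.2% and 8.65% of all genes. Esrra, which encodes the oestrogen-related receptor alpha, read 6.29 in control cells and 4.83, also below the floor, in siTet2/3 cells. Against the floor of 5.03 Esrra was at least 2.40-fold lower. The repressor gene Bhlhe40 was 1.94-fold lower, and Hif1an, which encodes an asparaginyl hydroxylase of HIF, 1.53-fold, a call that was lost with centring and with the trend removed. Hif1a itself read 13.73 and 13.82, and Myc 14.38 and 14.10.

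**Figure D4:**
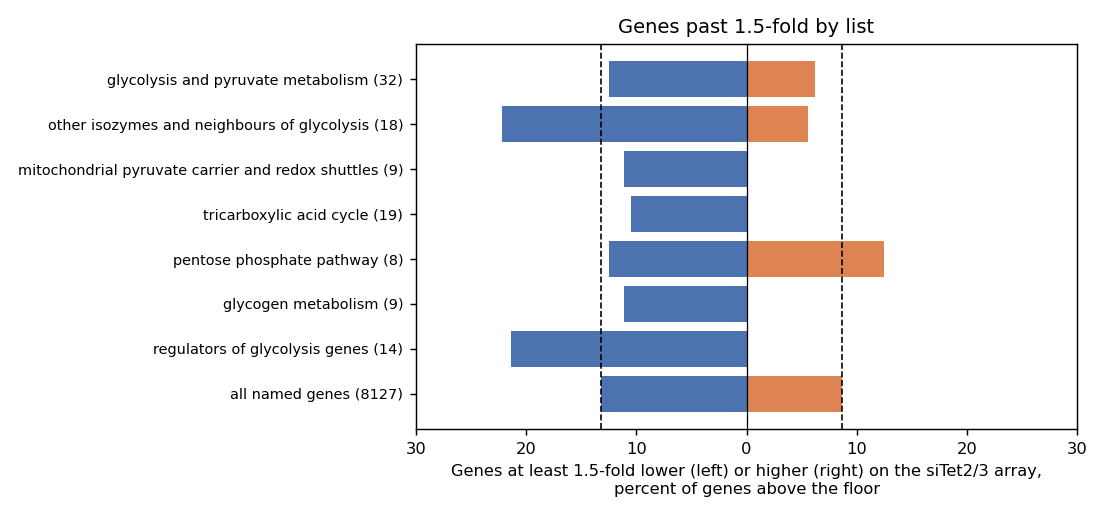
Percent of genes above the floor (number in brackets) that were at least 1.5-fold lower (left, blue) or higher (right, orange) on the siTet2/3 array, for the glycolysis and pyruvate list, 6 neighbouring lists and all named genes, whose shares are drawn on as dashed lines. The bar of the glycolysis and pyruvate list ends close to both dashed lines.

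Promoter windows of 300 bases, 250 before and 50 after the start, were found in RefSeq (GRCr8) for 35 of the 38 listed genes. Slc2a3, Pgk1 and Pdp1 had none. Among the 34 windows of 30 members above the floor, 55.9% held ACGTG on either strand, where 26.3% of 7169 windows of all named genes above the floor did. For GCGTG the shares were 55.9% and 50.9%, and for CACGTG 14.7% and 9.69%. Either ACGTG or GCGTG was held by 26 of the 34 member windows (76.5%) and by 62.8% of the windows of all genes. The median window of the members had 19.5 CG dinucleotides and that of all genes 22. Of the members past 1.5-fold, the windows of Pfkfb3 and Pdhb held CACGTG and so ACGTG, and that of Pdhb held GCGTG too. The window of Pfkm held ACGTG alone, that of Ldhb GCGTG alone, and those of Pfkfb2 and Pfkfb4 none of the 3 motifs. A match of letters is not a measured binding site.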

How the data were processed

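Total RNA of each culture was labelled with biotin and hybridised to 1 whole-transcript array. The authors deposited log2 signals per probe set in 1 table. Per the submitters' processing notes they used the Transcriptome Analysis Console and RMA, which subtracts background, equalises the distributions of arrays and summarises probes. Settings are not given there. The log base is taken from RMA, and the genome build is not given in the sources used here. Rank by rank, the 2 columns were within 0.151 of each other, so the arrays share nearly 1 distribution and a change in total RNA per cell cannot show. Values above 16 are higher than plain RMA usually gives, so folds are those of the deposited scale.

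Of 23188 gene probes, 15049 had 1 gene symbol in the platform annotation, 0 had several and 8139 had none. Probes of 1 gene were averaged (10 genes, of which 0 were members). The floor used chemoreceptors found by symbol or by older symbol in RefSeq (GRCr8). The difference is siTet2/3 minus control, and a gene was called at 1.5-fold on the difference as measured, also in the counts over all genes. Raising values from below the floor up to it gave 956 lower and 565 higher. For a named gene with 1 value below the floor, the fold printed is a bound against the floor. The trend on level was a lowess fit (span 0.3, statsmodels 0.14.6). The calling steps were run on simulated arrays with planted differences and a noise level set by hand. That run checks the code and cannot tell how reliable the calls on these 2 arrays are. The members and the lists were chosen with earlier results of these data known. All measured members are named, and from each neighbouring list up to 3 genes in each direction past 1.5-fold. Other genes named were chosen after their values were seen. Promoters are shown for the members with the largest decrease and increase and their family members above the floor. Alternatives concerned the floor, the scaling, the fold limit, the probes and the top of the scale. There were 0 columns of unknown samples.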

Additional observations from a re-analysis of the deposited data

How the results depend on the processing

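The counts of 4 lower and 2 higher members kept within 1.5 times of these values under 8 of 10 alternatives. Some of the 8 could not change them. Taking the brightest probe could not, as 0 members had more than 1 probe. Leaving out genes at the top of the scale could not, as 0 members lay there. Raising values to the floor could not either, as all 32 members were above it on both arrays. With the floor from negative-control probes, 22 members were left, of which 2 were lower and 0 higher. At a 2-fold limit 1 member, Pfkfb3, was lower and 0 were higher. The members' median stayed between -0.17 and -0.11 log2 units under all alternatives run on it. Over all genes, 1690 were lower and 1684 higher with no floor, 453 and 248 with the floor from negative-control probes, and 249 and 151 at 2-fold. In the neighbouring lists the count of higher genes was 11 with no floor, 1 with the floor from negative-control probes and 5 after removal of the trend. The floor from chemoreceptors by current symbol alone was added after seeing the data and moved no count by over 1.5 times. These alternatives change the processing of the same 2 arrays and cannot replace replicates. No paired analysis was possible because each group had 1 array.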
